A study of Mus musculus with 13 samples.

Results

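Pericentral liver sinusoidal endothelial cells (LSEC) are the sinusoidal lining cells that sit next to the central vein. They were picked here by the unique molecular identifiers (UMIs) counted per cell. A barcode with at least 1500 UMIs was kept when Stab2, Clec4g, Gpr182 and Oit3 together gave at least 3 UMIs, which marks LSEC. Wnt2, Wnt9b and Kit together also had to give at least 2, which was taken to mark the pericentral side. Cells with any UMI of Ptprc (pan-leukocyte CD45) or Epcam (epithelium) were left out. The rule found 17933 cells, 18.8% of the 95563 cells with enough UMIs and 67.8% of the 26465 cells that passed its LSEC part. The cells called pericentral here are thus a broad set of LSEC, and their position in the liver was not measured.

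Blood enters the hepatic sinusoid at the portal tract and leaves at the central vein, and LSEC change their expression along this path. Pericentral LSEC and the central vein endothelium secrete Wnt2, Wnt9b and the R-spondin Rspo3, which keep Wnt/beta-catenin signalling active in the neighbouring hepatocytes. LSEC of all zones are fenestrated scavenger cells that take up waste macromolecules through stabilins, the mannose receptor and Fc receptors.

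The cells came from livers of male C57BL/6J mice aged 6 to 12 weeks. Cholangitis was induced with chow holding 3,5-diethoxycarbonyl-1,4-dihydrocollidine at 0.1%, a porphyrinogenic compound abbreviated DDC, and mice were taken after 3, 5, 9, 19 or 25 days, with mice on control chow as D0. D0 is called steady state, D3 with D5 onset, and the libraries from D9 on progression, and each time point was isolated once by protocol A and once by protocol B. The library STOP came from mice fed DDC for 18 or 19 days and then allowed 7 days of recovery, isolated by protocol B. Days 18 and 19 of the diet were both named D19 by the study.

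Protocol A pooled several sorted fractions in equal parts, among them a Lyve-1+ fraction, and used a single-index kit. Protocol B pooled live cells of a stellate cell preparation, CD11c+, Epcam+ and T cell fractions, with no endothelial fraction among them, and used a dual-index kit. Protocol, fractions and kit cannot be told apart. Libraries are named by day and protocol (D0 A, D0 B) throughout. The labels do not tie mice to libraries, so n counts libraries, with 2 in steady state, 4 in onset and 6 in progression, and p-values measure the spread between libraries, which may be technical.

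The libraries held between 29307190 and 108602421 UMIs. They gave from 59 (D3 B) to 3803 (D9 A) pericentral LSEC with a median of 2327 to 9467 UMIs per cell, and at most 5 barcodes were shared by any pair of libraries. Of the endothelial genes that the rule did not use, the median library had a UMI of Cdh5 in 96.6% of cells, of Eng in 96.3%, of Pecam1 in 94.9% (63.6% in the lowest library) and of Tek in 81.9% (60.1% in the lowest). Lyve1, a gate of protocol A, ranged from 27.6% to 94.9%. Prox1, a lymphatic transcription factor, was detected in 1.70% to 8.94% of cells and Ccl21a in at most 0.932%.

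Transcripts of other liver cells were present and uneven between libraries. On the scale of UMIs scaled to 1000000 per library sum (CPM), 8 Kupffer cell markers summed to 85.1 and 245 CPM in steady state, 221 to 266 in onset, 173 to 800 in progression (799.7 in D19 A) and 436 in STOP. All of them were detected in progression, while Vsig4, Timd4 and Marco stood at 0 in D0 B. The 8 stellate and fibroblast markers summed to 947 CPM in D0 A, 0 in D0 B, 20.9 to 64.3 in onset, 17.9 to 1121 in progression and 926 in STOP, with Lrat at 0 in several libraries. The 8 hepatocyte markers were highest in D0 A (1016 CPM) and STOP (1147 CPM) and ranged from 79.9 to 398 elsewhere. The 8 leukocyte markers summed to 60.5 to 773 CPM. The 4 lymphatic markers summed to 85.1 CPM in D0 A, 8.68 in D0 B and 105 in STOP. Their sums were 3.48 to 10.5 CPM in onset and 3.09 to 76.8 in progression. The 7 cholangiocyte markers summed to 75.0 CPM in D0 A, 1.74 in D0 B and 112 in STOP. In onset these gave 4.19 to 89.3 CPM and in progression 56.0 to 139. Between 0.439% (D0 B) and 33.7% (D19 A) of the cells held at least 2 UMIs of Clec4f, Vsig4, Cd5l, Dcn, Reln and Lrat together. They are called cells with Kupffer or stellate UMIs, and tests were repeated without them. The other markers did not enter this count, so cells with UMIs of C1qb (up to 67.6% of cells in a library) could stay in.

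Across the LSEC of all libraries, 3055 cells lay just inside it with 2 UMIs of Wnt2, Wnt9b and Kit, and 3770 lay just outside it with 1 UMI. Rspo3 (R-spondin 3, the Wnt co-ligand) had a library median of 25.8 CPM in cells with 0 of these UMIs, 70.8 with 1, 53.2 with 2, 128 with 3 to 4 and 403 with 5 or more. Thbd, the thrombin receptor thrombomodulin, went from 198 CPM at 0 UMIs through 224 at 1 and 281 at 2 to 573 CPM at 5 or more. Cdh13 (T-cadherin) went from 52.0 to 266 CPM, and Selp (P-selectin, which tethers rolling leukocytes) from 38.5 to 126 CPM. None of these 4 genes was used by the rule, and their levels stood highest in the cells with most of the rule's UMIs.

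Several genes of the portal side ran the other way. Msr1, a scavenger receptor, had a median of 649.8 CPM in cells with 0 of the UMIs, 374 with 2 and 146 with 5 or more. Ntn4 (netrin 4) went from 586 to 200.3 CPM and Ltbp4, which binds latent TGF-beta, from 358 to 147 CPM. The arterial ligands Efnb2 and Dll4 went from 183 to 66.8 CPM and from 105 to 37.4 CPM. These genes ran with the label, but Fabp4, Adam23, Itga9, Vwf and Jag1 showed no such order: Jag1 stood at 68.1 CPM with 0 UMIs, 23.4 with 2 and 33.4 with 5 or more. Adam23 stood at 1488 CPM with 0 UMIs and 1413 CPM with 5 or more, and Vwf at 88.1 and 95.3 CPM.

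**Figure D1:**
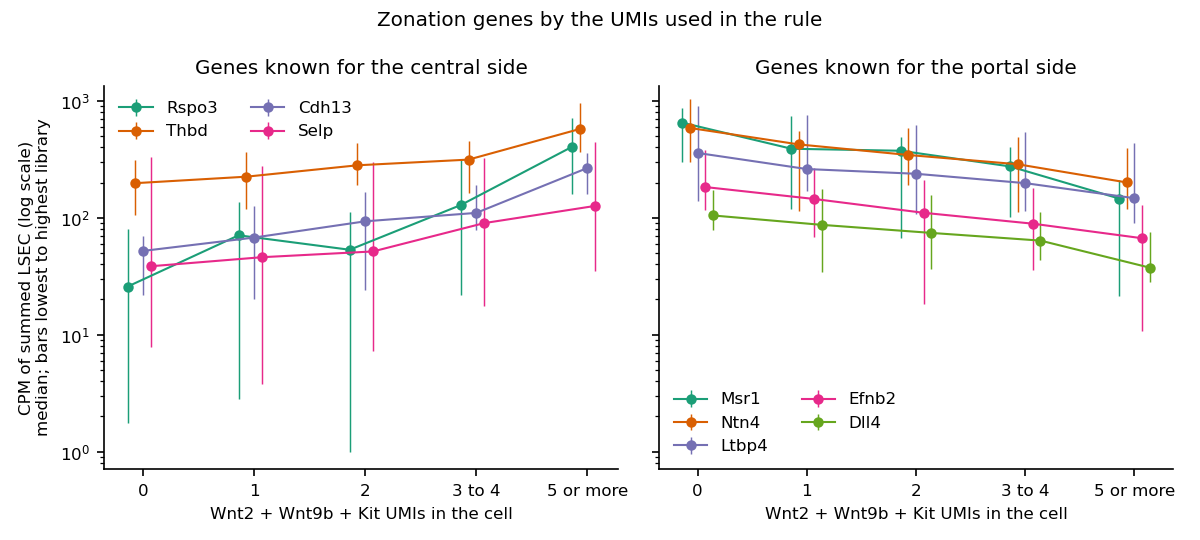
Level (CPM, log axis) of zonation genes in LSEC grouped by the summed UMIs of Wnt2, Wnt9b and Kit; points are library medians and bars run from the lowest to the highest library, with values under 1 CPM drawn at 1. Rspo3 climbed from 25.8 to 403 CPM and Msr1 went down from 649.8 to 146 CPM between the first and the last group.

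Within the 12 libraries that held at least 20 cells of both kinds, Rspo3, Thbd, Cdh13, Selp, Bmp2, Stab1, Mrc1, Tek and Eng were each higher in pericentral LSEC than in LSEC with no zonation UMI in 12 of 12. Rspo3 was 2.94 higher on the log2 scale (median of the 9 libraries with enough counts for a ratio), at 293 against 25.8 CPM. Ackr3, the scavenging receptor for Cxcl12, was also higher in 12 of 12, at 39.1 against 7.51 CPM. Msr1 was lower in 12 of 12 (210.6 against 649.8 CPM), as were Efnb1, Efnb2, Jag1, Ntn4, Ltbp4 and Dll4. Of the other zonation genes, Fabp4 was higher in 10 of 12, and the portal genes Adam23 and Itga9 were lower in 8 and 11. Vwf, listed as a pericentral gene, ran against the label and was lower in 8 of 12 (71.4 against 88.1 CPM). These ratios describe cells that were picked by correlated counts and carry no test, and pericentral LSEC had more UMIs per cell than other LSEC in every library.

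The share of LSEC that passed the rule ran from 51.5% (D0 B) to 75.2% (D9 B), with a median of 64.6%. It moved with depth and with 1 ribosomal RNA-derived feature, CT010467.1, which took from 1.28% (STOP) to 25.5% (D3 A) of the UMIs. The feature also counted towards the minimum of 1500 UMIs: 2966 of 3266 LSEC in D25 A and 5359 of 5785 in D9 A reached it by other UMIs. When each cell was thinned to 1500 UMIs other than this feature, the shares were 41.7% and 40.1% at D0, 44.1%, 32.4%, 44.7% and 42.5% in onset (D3 A, D3 B, D5 A, D5 B), and 41.5% and 47.3% at D9 (A, B). They were 33.7% and 29.2% at D19, 36.0% and 13.1% at D25 and 25.4% in STOP. The D3 B, D19, D25 and STOP shares lay below both D0 shares, but by exact binomial 95% intervals, which cover counting error only, D3 B (22.0% to 44.3%), D19 A (31.4% to 36.0%) and D25 A (33.9% to 38.1%) overlapped with D0 B (34.7% to 45.7%). D25 B rested on 14 of 107 cells (7.34% to 21.0%). Since the rule uses these UMIs, the shares are a description, and fewer pericentral cells and less Wnt2, Wnt9b or Kit RNA per cell cannot be told apart.

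**Figure D2:**
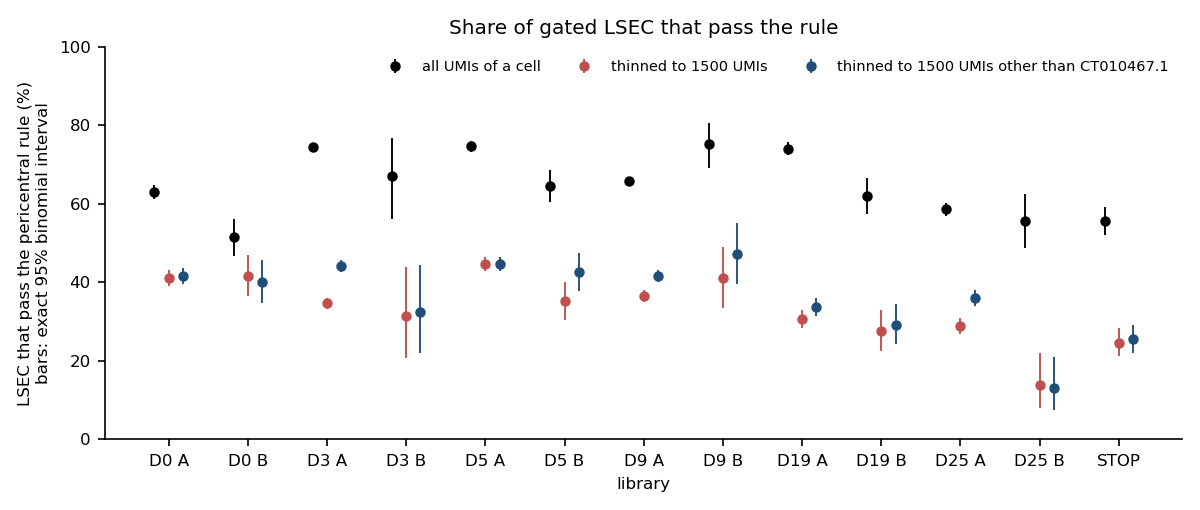
Share of LSEC (percent) that passed the pericentral rule in each library, unthinned and thinned, with exact binomial 95% intervals. After thinning to UMIs other than CT010467.1, D25 B (13.1%) and STOP (25.4%) had the lowest shares and D9 B (47.3%) the highest.

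The genes of the rule are given as levels. Kit, the stem cell factor receptor, had a UMI in 83.3% to 98.9% of cells, and from 9.65% (D0 B) to 45.7% (D19 B) of the cells passed by Kit alone. Wnt2 stood at 362 CPM in D0 A and 831 in D0 B, at 224 to 419 in onset and at 181 to 403 in progression, after TMM scaling of the library sums (a correction for composition). Levels of single genes from here to the recovery are on this TMM-scaled CPM scale, while sums of marker lists are plain CPM. Wnt2 was thus highest in D0 B, and D0 A lay within the range of the libraries on diet. Wnt9b, the second Wnt ligand, was lower and overlapped between the groups, at 76.8 and 34.7 CPM in steady state, 21.6 to 116.7 in onset and 23.6 to 86.2 in progression. Kit stood at 831 and 734 CPM in steady state and between 328 (D25 B) and 942 (D9 B) in progression. Stab2 (stabilin 2, the hyaluronan receptor) ranged from 315 (D25 B) to 908 CPM (D9 B), Gpr182 from 749 to 1735 CPM and Oit3 from 552 to 1313 CPM.

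The response to DDC was followed first as a slope of the log2 level on log2(day + 1) over the 12 libraries from D0 to D25, with protocol as a term, by edgeR's quasi-likelihood test with Benjamini-Hochberg adjustment. Of 11907 genes tested, 185 (1.55%) were called at an adjusted p of 0.05, 101 (0.848%) higher and 84 (0.705%) lower with time. The median slope over all genes was −0.000624 per doubling of day + 1. A slope of 1 corresponds to a doubling of the level for each doubling of day + 1. Of the 185 calls, 163 were also called without the cells that held Kupffer or stellate UMIs. DESeq2 shared 184 of them, RLE scaling 182, cells with at least 3000 UMIs 125 and the rule without Kit 112. Without D19 A 56 were shared, in protocol A alone 83 and in protocol B alone 7.

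Selp rose over the diet. It stood at 52.8 and 31.2 CPM in D0 A and D0 B, at 61.0, 26.6, 135 and 70.9 CPM in D3 A, D3 B, D5 A and D5 B, and in progression at a lowest of 103, a median of 252 and a highest of 354 CPM. All 6 progression libraries lay above both steady-state libraries, while 1 onset library lay below them. Its slope was 0.67 ± 0.09 (SE, adjusted p = 0.0033), which comes to 3.17 on the log2 scale between D0 and D25. Within protocol A the slope was 0.56 (adjusted p = 0.03272) and within protocol B 0.86 (adjusted p = 0.04006). It was the only one of the genes named for this slope that was called under every alternative and without any 1 library. The contrast of progression with steady state, which groups D9 with D25, gave Selp a log2 difference of 2.47 ± 0.63 that was not called (adjusted p = 0.1076).

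Lrg1, a secreted glycoprotein that modulates endothelial TGF-beta signalling, also rose. It stood at 31.4 and 20.8 CPM in steady state, at 89.5 and 31.6 CPM at D3 (A, B), at 271 and 148 CPM at D5, and in progression at 187, 424 and 677 CPM (lowest, median, highest). Every library on DDC was above both steady-state libraries on this scale. D3 B (31.6 CPM) and D0 A (31.4 CPM) were nearly level, and their order rests on the TMM factors (1.0462 and 1.1245). The slope was 0.95 ± 0.13 (adjusted p = 0.003181), and within protocols A and B it was 0.91 and 1.01. Progression was 4.01 ± 0.70 above steady state on the log2 scale (adjusted p = 0.02593), a call that was lost without D0 A (0.09907), D0 B (0.056), D19 A (0.05464) or D25 A (0.07424).

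Ednrb, the endothelin B receptor, stood at 47.5 and 1.73 CPM in steady state, at 98.7, 31.6, 101.6 and 169 CPM in onset, and between 75.1 and 473 CPM in progression with a median of 242. Both D0 libraries were lower than every progression library, although D0 A exceeded D3 B. The slope was 0.80 ± 0.14 (adjusted p = 0.0124). Il17ra, the receptor subunit for interleukin 17A, stood at 10.2 and 5.20 CPM in steady state, 33.5, 19.9, 51.3 and 52.3 CPM in onset and 52.3 to 104 CPM in progression, and here the steady-state libraries did not overlap with any library on DDC. Its slope was 0.61 ± 0.09 (adjusted p = 0.005893).

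Serpina3n, a secreted serine protease inhibitor of the acute phase, stood at 8.11 and 1.73 CPM in steady state, 12.4, 0, 41.3 and 11.04 CPM in onset and 31.1 to 136 CPM in progression. Its slope of 0.95 ± 0.17 (adjusted p = 0.0124) was as steep as that of Lrg1, at a lower level. Cd63, a tetraspanin of late endosomes and Weibel-Palade bodies, stood at 24.1 and 19.1 CPM in steady state, 18.97, 39.9, 42.6 and 80.7 CPM in onset and 65.2 to 338 CPM in progression, with a slope of 0.82 ± 0.11 (adjusted p = 0.003181). Scaled by leukocyte markers, free RNA was put at 18.7% of the Cd63 UMIs and at 1.09% to 3.95% for Serpina3n, Lrg1, Ednrb, Selp and Il17ra. These are not upper bounds, since the rule left out cells with Ptprc UMIs. The leukocyte scale put free RNA at 1.52% (D5 A) to 14.7% (D25 A) of members' UMIs. A scale by Alb was higher in every library, from 8.58% (STOP) to 182% (D25 A). Cdh4 (R-cadherin) rose by less, from 19.9 and 10.4 CPM in steady state to 44.6 to 74.9 CPM in progression, with a slope of 0.42 ± 0.06 (adjusted p = 0.003181). These 6 genes stayed called without any 1 library, and their slopes had the same sign in both protocols, but within protocol B alone only Cd63 of the 6 was called (adjusted p = 0.01176), and within protocol A alone Cd63 was not (adjusted p = 0.06062).

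**Figure D3:**
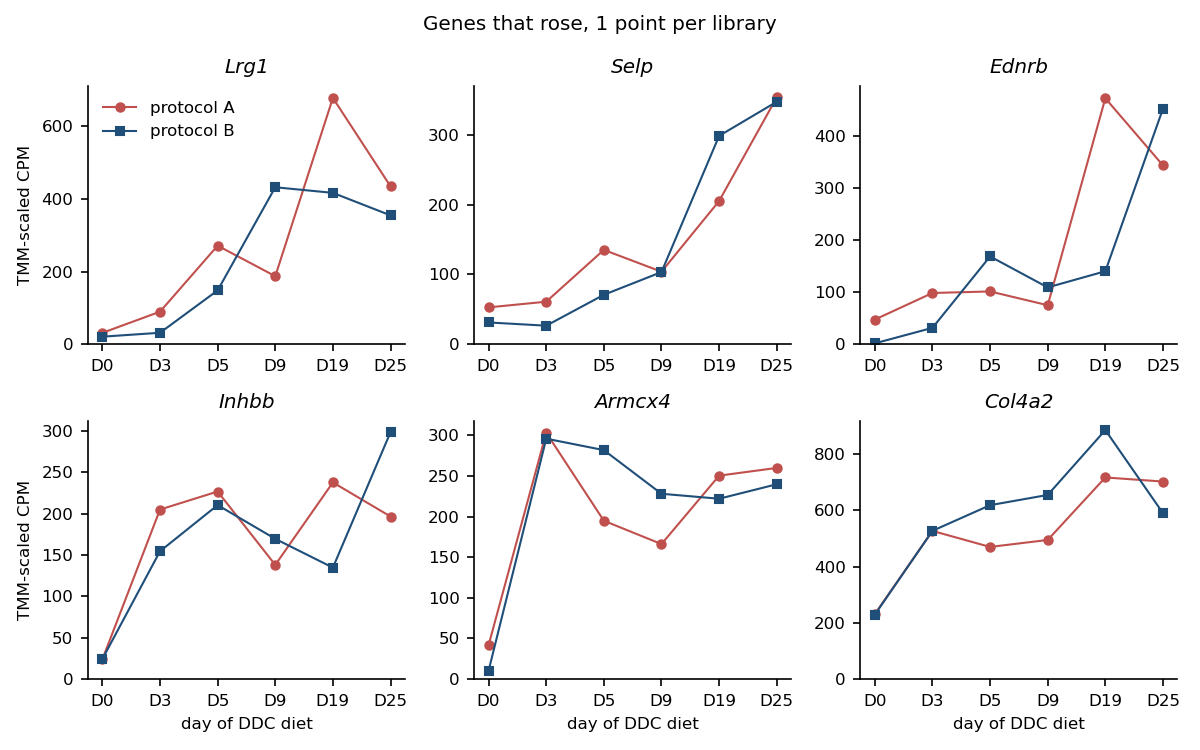
Level (TMM-scaled CPM, linear axes from 0) of Lrg1, Selp, Ednrb, Inhbb, Armcx4 and Col4a2 by day of DDC diet, 1 point per library, with protocol A as circles and protocol B as squares. Selp lay at 31.2 and 52.8 CPM at D0 and at 205 to 354 CPM at D19 and D25, while Armcx4 was already at 296 and 303 CPM at D3.

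Inhbb and Armcx4 were already high at D3. Inhbb encodes the beta-B subunit of activins and inhibins. It stood at 23.9 and 24.3 CPM in steady state, at 205, 154.5, 227 and 210.3 CPM in D3 A, D3 B, D5 A and D5 B, and at 135 to 298 CPM in progression. Armcx4, an armadillo repeat gene, stood at 41.8 and 10.4 CPM in steady state, 303, 296, 195 and 282 CPM in onset and 166 to 259.8 CPM in progression. For both, the steady-state libraries lay apart from all 10 libraries on DDC. In the contrast of onset with steady state, 4 of 12459 genes (0.0321%) were called, and these were 2 of them. Inhbb was 3.07 ± 0.38 higher on the log2 scale (adjusted p = 0.009487) and Armcx4 3.17 ± 0.41 higher (adjusted p = 0.009487). Without D0 A the call for Inhbb was lost (adjusted p = 0.05333), while that for Armcx4 held without any 1 library.

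The other 2 onset calls were lower in onset, Igfbp5 and Gas1, and were named after their values were seen. Igfbp5, an insulin-like growth factor binding protein, stood at 50.04 CPM in D0 A and 0 in D0 B, at 0 to 2.27 CPM in onset and up to 80.0 CPM in progression. Gas1 stood at 17.8 CPM in D0 A and 0 in D0 B. The stellate and fibroblast markers summed to 947 in D0 A against 0 in D0 B in plain CPM, and neither gene was called without the cells that held Kupffer or stellate UMIs.

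Between progression and steady state 42 of 12459 genes (0.337%) were called, 20 higher and 22 lower. Inhbb (3.03 ± 0.37) and Armcx4 (2.93 ± 0.39) were among them, with the same D0 libraries as controls as in the contrast of onset. Il17ra was 2.96 ± 0.43 higher, the chloride channel regulator Clca3a1 2.68 ± 0.44 and Cdh4 1.93 ± 0.29. Cd93, an endothelial C-type lectin, stood at 470 and 375 CPM in steady state and 835 to 1244 CPM in progression, a difference of 1.33 ± 0.25. Ctsb, the lysosomal protease cathepsin B, stood at 694 and 697 CPM in steady state and 1473 to 2170 CPM in progression (1.30 ± 0.24). Rab3b, a vesicle-trafficking GTPase, was 1.75 ± 0.34 higher. Of these, Armcx4 alone stayed called without any 1 library. Without D0 A the differences of Clca3a1 (3.84), Il17ra (3.58) and Cdh4 (2.53) were larger while their calls were lost, with adjusted p of 0.05109, 0.07161 and 0.05109. Without D0 A the adjusted p was 0.05051 for Inhbb (2.96), 0.06885 for Cd93, 0.08606 for Ctsb and 0.1144 for Rab3b. Without D25 A it was 0.05855 for Clca3a1. Cd93 (0.1046 without D25 A), Ctsb (0.08996 without D25 A) and Rab3b lost their calls without 9, 8 and 7 of the 12 libraries in turn.

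Basement membrane and capillary genes moved in part. Of 9 tested genes of a capillarization list, Col4a2 and Cd34 rose with time (2 of 9, beside 0.848% of all genes), and the median slope of the list was 0.16. Col4a2 (collagen IV alpha 2) stood at 231 and 229 CPM in steady state, 470 to 618 CPM in onset and 494 to 885 CPM in progression, and no steady-state library overlapped with a library on DDC. Its slope was 0.33 ± 0.06 (adjusted p = 0.01553), and the call was lost without D0 A (0.05511). Progression was 1.54 ± 0.25 above steady state for Col4a2 (adjusted p = 0.01702), lost without D0 A (0.05911), D0 B (0.05267) or D25 A (0.06537). Cd34, a marker of continuous endothelium, was near its floor, at 1.51 and 0 CPM in steady state and 3.65 to 11.5 CPM in progression. Its slope of 0.57 ± 0.11 (adjusted p = 0.01582) lost its call without D0 A (0.05326) or D25 A (0.07609). Col4a1 had a slope of 0.36 ± 0.11 (adjusted p = 0.1061) and Plvap, the diaphragm protein of fenestrae, 0.33 ± 0.10 (adjusted p = 0.09582). Lama4 and Vwf had slopes of 0.01 and −0.02.

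Of 6 tested leukocyte adhesion genes, Selp and Sele rose (2 of 6, beside 0.848% of all genes) and the median slope was 0.23. Sele, E-selectin, stood at 78.0 and 59.0 CPM in steady state, 80.7 to 161 CPM in onset and 92.1 to 251 CPM in progression, with a slope of 0.34 ± 0.07 (adjusted p = 0.02958) that lost its call without D0 A (0.05306), D3 A (0.06141), D19 A (0.06355) or D25 A (0.09404). Vcam1 and Icam1 had slopes of 0.13 ± 0.08 and 0.12 ± 0.08 and were not called. Of the 10 angiocrine factors, Hgf, the hepatocyte mitogen, rose from 134 and 98.9 CPM to 139 to 350.1 CPM in progression (slope 0.25 ± 0.06, adjusted p = 0.04682). Its call was lost without 9 of the 12 libraries in turn, with the adjusted p reaching 0.1457 without D25 A. Ccn2, a matricellular target of Yap, had a slope of 0.65 ± 0.17 (adjusted p = 0.0602) and Angpt2, the Tie2 antagonist, 0.73 ± 0.20 (adjusted p = 0.0711). Myc had a slope of 0.57 ± 0.11 (adjusted p = 0.01963) with an outlying library, D25 B, at 421 CPM, and was lost without D0 A (0.05207). Clca3a1 had a slope of 0.54 ± 0.11 (adjusted p = 0.02147), lost without D0 A (0.08083) or D19 A (0.05081). Itgb3, the beta-3 integrin, had a slope of 0.53 ± 0.12 (adjusted p = 0.04115) that was lost without 10 of the 12 libraries in turn, up to 0.08573 without D19 A.

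Among genes with a called slope and a mean log2 CPM of at least 5, the steepest falls named by the rule were those of inducible heat shock proteins, chaperones that are made in response to unfolded proteins. Hspa1a, an inducible Hsp70, stood at 1102 and 305 CPM in D0 A and D0 B, at 542 and 239 CPM at D3 (A, B), at 42.6 and 63.9 CPM at D5, and between 13.7 and 185 CPM in progression with a median of 32.7. The progression libraries all lay below both steady-state libraries, while D3 A lay between them. Its slope was −0.97 ± 0.17 (adjusted p = 0.01154), a change of −4.58 on the log2 scale over D0 to D25. Hspa1b, the adjacent near-identical Hsp70 gene, had a slope of −1.05 ± 0.20 (adjusted p = 0.02079), and pseudoaligned reads could be divided between the pair. Hspa1b lost its call without D0 A (0.07879) or D25 A (0.05648).

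Hsph1 (Hsp110), a nucleotide exchange factor for Hsp70, stood at 344 and 81.5 CPM in steady state, 134, 44.9, 27.8 and 26.1 CPM in onset and 13.1 to 52.5 CPM in progression. It was lower in all 6 progression libraries than in either steady-state library and had a slope of −0.69 ± 0.09 (adjusted p = 0.003181) that held without any 1 library. In progression Hsph1 was lower by −2.88 ± 0.45 (adjusted p = 0.01316), a call lost without D0 A (0.1427) or D25 A (0.06537). Hspb1 (Hsp25), a small heat shock protein, stood at 121 and 284 CPM in steady state and 7.60 to 56.9 CPM in progression (slope −0.55 ± 0.12, adjusted p = 0.03281). Its call was lost without 8 of 12 libraries in turn, and without D0 B the slope was −0.33 (adjusted p = 0.1268). Hspa5, the chaperone BiP of the endoplasmic reticulum, was 1208 and 1003 CPM in steady state and 312 to 490.0 CPM in progression, lower by −1.44 ± 0.27 on the log2 scale (adjusted p = 0.03868), a call lost without 9 of 12 libraries in turn. Dnajb1, an Hsp40 co-chaperone, had a slope of −0.31 ± 0.08 (adjusted p = 0.06272).

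Of the 12 heat shock and immediate early genes tested, 3 fell (Hspa1a, Hspa1b and Hspb1, Hsph1 being outside this list) beside 0.705% of all genes, 0 rose and the median slope was −0.18. The immediate early genes Fos (−0.14 ± 0.08), Fosb (−0.13 ± 0.07), Jun (−0.04 ± 0.07), Junb (−0.18 ± 0.07), Atf3 (−0.16 ± 0.09) and Egr1 (−0.28 ± 0.08) were not called, with adjusted p from 0.0968 (Egr1) to 0.838 (Jun). In other LSEC Hspa1a stood at 1032 and 259 CPM in D0 A and D0 B and 18.9 to 238 CPM in progression.

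Heat shock promoters carry inverted repeats of nGAAn, and the letters GAANNTTC or TTCNNGAA were searched on both strands in the 150 bases before the start of each gene. The windows of the 4 heat shock genes whose slope fell are shown, with the matches in capitals, from RefSeq on GRCm38.p6. Hspa1a is at chr17:34972157-34972306 and Hspa1b at chr17:34959239-34959388, both on the minus strand, Hsph1 is at chr5:149636337-149636486 on the minus strand and Hspb1 at chr5:135887769-135887918 on the plus strand.
Hspa1a: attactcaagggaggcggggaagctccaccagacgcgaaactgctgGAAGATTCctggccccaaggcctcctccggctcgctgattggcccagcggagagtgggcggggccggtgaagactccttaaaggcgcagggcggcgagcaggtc
Hspa1b: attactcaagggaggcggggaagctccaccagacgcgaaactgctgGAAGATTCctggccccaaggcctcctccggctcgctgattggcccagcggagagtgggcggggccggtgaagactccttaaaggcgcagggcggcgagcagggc
Hsph1: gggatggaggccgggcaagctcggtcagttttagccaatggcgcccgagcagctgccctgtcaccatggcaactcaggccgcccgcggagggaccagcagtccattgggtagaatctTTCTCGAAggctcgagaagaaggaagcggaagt
Hspb1: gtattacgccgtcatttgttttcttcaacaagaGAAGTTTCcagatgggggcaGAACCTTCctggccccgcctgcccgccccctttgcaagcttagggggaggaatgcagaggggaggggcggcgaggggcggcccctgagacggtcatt
Hspa1a, Hspa1b and Hsph1 had 1 match each and Hspb1 had 2. The windows of Hspa5, Dnajb1 and Rnd3 had 0 matches. Hsph1 and Dnajb1 had 2 listed starts each, and only the window of the first was read for them. These letters occur in 2540 of 32851 promoter windows of the same length (7.73%), and a match is a description of the letters only.

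Rnd3, which lowers actomyosin tension, also fell. It stood at 246 and 342 CPM in steady state, at 113, 119.6, 116 and 71.4 CPM in onset and at 55.9 to 84.6 CPM in progression, and the steady-state libraries lay apart from all others. The slope was −0.46 ± 0.05 (adjusted p = 0.001596), with −0.44 and −0.48 within protocols A and B, and progression was lower by −2.02 ± 0.23 on the log2 scale (adjusted p = 0.000997). Both calls held without any 1 library, but neither passed in protocol B alone (adjusted p = 0.0779 for the slope and 0.09355 for progression). Ehd3, an endocytic recycling protein that LSEC share with glomerular endothelium, stood at 3637 and 2758 CPM in steady state, 1791 to 2640.0 CPM in onset and 1123 to 2644 CPM in progression. Its slope was −0.29 ± 0.06 (adjusted p = 0.02079), and it stayed called without any 1 library. Ehd3 was the only 1 of 9 tested scavenger and endocytosis genes to be called, beside 0.705% of all genes called lower, and the median slope of that list was −0.04.

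H2-K1, a classical class I heavy chain of antigen presentation, stood at 2249 and 1188 CPM in steady state, 1793, 982, 906 and 1049 CPM in onset and 526 to 1026 CPM in progression (slope −0.33 ± 0.06, adjusted p = 0.02331). The call was lost without D0 A (0.08095), D19 A (0.05883) or D25 A (0.0587). It was the 1 gene called of 10 tested on an antigen presentation list with a median slope of −0.16, beside 0.705% of all genes called lower. B2m, the light chain of class I, had a slope of −0.17 ± 0.06 (adjusted p = 0.1782) and H2-D1 −0.14 ± 0.05 (adjusted p = 0.2128). H2-Q6 (−0.46 ± 0.09, adjusted p = 0.01963, lost without D25 A at 0.05648) and H2-Q7 (−0.35 ± 0.08, adjusted p = 0.04344, lost without 9 of the 12 libraries in turn) also fell, but these paralogs share sequence and the division of reads between them is uncertain. Ifi44, an interferon-induced gene, had a slope of −0.53 ± 0.11 (adjusted p = 0.02463) that was lost without D0 A (0.1007), D19 A (0.06297) or D25 A (0.0748). Of 11 interferon response genes 0 were called and 0 had a positive slope, with a median of −0.12. Over all genes 0.705% were called lower and 5923 of 11907 slopes were positive. Ifit3 missed the threshold in edgeR (adjusted p = 0.05148) and passed it in DESeq2 (0.009913).

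Other genes that were lower in progression than in steady state were P4ha1, a collagen prolyl hydroxylase (−1.24 ± 0.22, adjusted p = 0.02593), Tle4, a Groucho corepressor (−1.04 ± 0.20, adjusted p = 0.03868) and Ecm1, a matrix protein that holds TGF-beta latent (−1.16 ± 0.23, adjusted p = 0.047). Ecm1 stood at 308 CPM in D0 A, 106 in D0 B and 58.1 to 115 CPM in progression, so D0 B overlapped with progression. Without D0 A its difference was −0.58 (adjusted p = 0.2828), and without the cells that held Kupffer or stellate UMIs the adjusted p was 0.4043. Without D0 A the adjusted p was 0.09606 for P4ha1 and 0.07637 for Tle4, and without D25 A it was 0.07424 and 0.05855. P4ha1, Tle4 and Ecm1 lost their calls without 3, 10 and 9 of the 12 libraries in turn. Aass, which degrades lysine, and Gpr155, a lysosomal cholesterol sensor, fell over time with slopes of −0.42 ± 0.08 and −0.37 ± 0.07, calls that were lost without D0 A (0.09434 and 0.06284) and, for Aass, without D19 A (0.06355) or D25 A (0.06666).

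**Figure D4:**
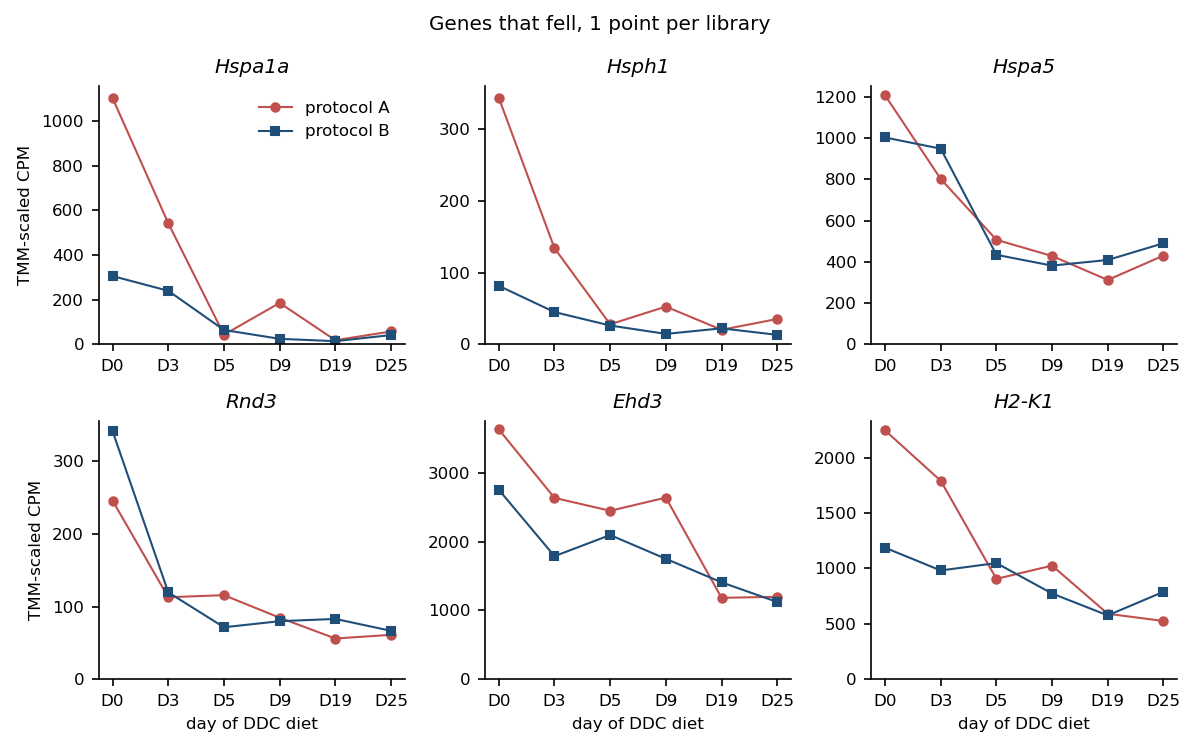
Level (TMM-scaled CPM, linear axes from 0) of Hspa1a, Hsph1, Hspa5, Rnd3, Ehd3 and H2-K1 by day of DDC diet, 1 point per library, with protocol A as circles and protocol B as squares. Hspa1a lay at 1102 and 305 CPM at D0 and at 13.7 to 57.2 CPM at D19 and D25, and Rnd3 lay at 246 and 342 CPM at D0 and at 55.9 to 82.9 CPM at D19 and D25.

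Among cells that passed the rule, the pericentral genes outside it showed little slope apart from Selp. Members were picked by UMIs of Wnt2, Wnt9b and Kit, with which Rspo3, Thbd and Cdh13 ran. These slopes therefore cannot show whether zonation itself changed on the diet. Of 6 tested, Selp alone was called, beside 0.848% of all genes called higher, and the median slope was −0.0066. Rspo3 stood at 329 and 232 CPM in steady state, 348, 146, 558 and 168 CPM in onset and 126 to 415 CPM in progression, with libraries of all 3 stages overlapping (slope 0.003 ± 0.089, adjusted p = 0.9945). Thbd had a slope of 0.04 ± 0.10, Cdh13 of −0.07 ± 0.06 and Fabp4, a fatty acid binding protein, of −0.10 ± 0.09. Bmp2, the endothelial signal that drives hepcidin in hepatocytes, stood at 2538 and 1946 CPM in steady state and 1698 to 2617 CPM in progression, with a slope of −0.04 ± 0.05, and its partner Bmp6 had a slope of −0.0035 ± 0.09. The LSEC transcription factors Gata4 (−0.04 ± 0.06) and Maf (−0.05 ± 0.06) were not called, nor was any of 10 identity transcription factors, beside 1.55% of all genes. Stab1 (−0.13 ± 0.07), Mrc1 (−0.08 ± 0.06), Fcgr2b (−0.0046 ± 0.05) and the VEGF receptor Kdr (−0.10 ± 0.06) were not called either.

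The 9 tested genes of the portal side had a median slope of 0.15 with 8 of 9 positive, beside 5923 of 11907 over all genes. Members had a median of 3408 and 2327 UMIs per cell in D0 A and D0 B, and 4236 (D9 A) to 9467 (D3 B) on DDC. With more UMIs per cell, cells with a lower share of Wnt2, Wnt9b and Kit pass the rule. Depth and diet therefore cannot be told apart in the slopes of these portal genes. Msr1 alone of the 9 was called higher, beside 0.848% of all genes. It stood at 122 and 65.9 CPM in steady state, 149.6 to 219 CPM in onset and 145 to 265 CPM in progression, a slope of 0.27 ± 0.06 (adjusted p = 0.03621). The call was lost without D0 A (0.05609), D0 B (0.05582), D3 B (0.06248), D19 A (0.06785) or D25 A (0.07679). Msr1 is also a macrophage gene. It was called without the cells that held Kupffer or stellate UMIs (adjusted p = 0.04244). That removal does not take out macrophage RNA in cells without Clec4f, Vsig4 or Cd5l UMIs, and the part of macrophage RNA in the rise was not tested.

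Of 8 Kupffer markers, 4 were called higher with time in these cells, beside 0.848% of all genes, with a median slope of 0.39. C1qb had a slope of 0.47 ± 0.08 (adjusted p = 0.0136), C1qa of 0.39 ± 0.08 (adjusted p = 0.03621) and Marco of 0.74 ± 0.16 (adjusted p = 0.03802), and C1qc was the fourth. Lyz2, a myeloid lysozyme, was called of 8 leukocyte markers, at 0.60 ± 0.14 (adjusted p = 0.04635). None of the 8 hepatocyte and 6 stellate markers tested was called, with median slopes of −0.19 and 0.12. Selp, Lrg1, Ednrb, Il17ra, Serpina3n, Cd63, Cdh4, Hspa1a, Hsph1, Rnd3 and Ehd3 were all called when the cells with Kupffer or stellate UMIs were left out, with adjusted p from 0.000837 (Cd63, Rnd3) to 0.01898 (Ehd3).

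In the remaining lists, 1 of 11 VEGF, Tie and apelin genes (Esm1) and 1 of 8 vascular tone genes (Ednrb) were called higher, beside 0.848% of all genes. Esm1 reached at most 10.6 CPM in any library. It was tested without each of 6 libraries and lost its call without D3 B (0.0565) or D19 B (0.07059). Nos3, the endothelial nitric oxide synthase, and Edn1, the ligand of Ednrb, had slopes of 0.01 ± 0.08 and 0.07 ± 0.16. No gene was called of 8 chemokines, 9 coagulation genes, 14 genes of the Nrf2, metal and heme response, 10 cell cycle genes, 10 TGF-beta and BMP targets and 8 Notch genes. The share over all genes was 1.55%, at which lists this short can hold 0 calls. Among the Nrf2 and heme genes 13 of 14 slopes were positive with a median of 0.12, beside 5923 of 11907 positive slopes over all genes. The slope of Hmox1, heme oxygenase 1, was 0.20 ± 0.08 (adjusted p = 0.2387). Mki67, a cycling marker, had a slope of 0.13 ± 0.20 (adjusted p = 0.8214).

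Between progression and onset, 6 of 12459 genes (0.0482%) were called, and all 6 were named after their values were seen. Mup11, Mup17 and Serpina1e, transcripts of hepatocytes, were lower in progression: Serpina1e stood at 38.7, 43.2, 10.5 and 4.65 CPM in onset and at most 0.685 CPM in progression. The Mup genes are near-identical copies whose reads cannot be placed with certainty. Igfbp5, Igfbp6 and the macrophage chitinase-like gene Chil3 were higher in progression, each with at least 1 library at or under 1.75 CPM. The sums of hepatocyte markers, in plain CPM without TMM scaling, were 186 to 269.5 in onset and 162 to 398 in progression.

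The response of pericentral LSEC was compared with that of other LSEC of the same libraries, as the difference between both kinds in their change from D0 to D3 through D25, with library as a block. In edgeR 0 of 11722 genes (0.0%) were called, with 440 at an unadjusted p under 0.05, and DESeq2 called 0 as well. The change of Serpina3n was 1.95 ± 0.56 larger in pericentral LSEC (adjusted p = 0.8898) and that of Ednrb 1.15 ± 0.37 larger (adjusted p = 1). Selp stood at 37.4 and 7.50 CPM in other LSEC of D0 A and D0 B, at 9.45 to 32.2 CPM in onset and at 22.5 (D9 B) to 315.5 CPM (D25 B) in progression, and its change was 0.84 ± 0.49 larger in pericentral LSEC. Lrg1 stood at 55.5 and 3.75 CPM in other LSEC at D0 and 150 to 613 CPM in progression, a difference in response of 0.65 ± 0.48. Hspa1a fell in pericentral LSEC, and the difference in response was −0.50 ± 0.18. For Fabp4 the difference in response was −1.09 ± 0.22 (adjusted p = 0.1917). In other LSEC too, D0 A and D0 B lay apart from the libraries on DDC for Inhbb, Armcx4 and Rnd3. Inhbb stood there at 17.3 and 22.5 CPM at D0 and 67.4 to 222 CPM on DDC. Armcx4 stood at 76.6 and 18.8 CPM against 211 to 606 CPM, and Rnd3 at 245 and 266 CPM against 44.9 to 155 CPM. A p above the threshold does not show that both kinds responded alike.

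Recovery was described from STOP and D19 B, with 1 library each and no replicate check, as plain CPM with exact Poisson 95% intervals that cover counting error only. Of 1012 genes with at least 200 CPM in either library, 488 had separate intervals with a higher level in STOP and 233 with a lower one. Lrg1 was 186 CPM (169.5 to 203) in STOP against 440 (410 to 472) in D19 B, and Selp was 137 CPM (123 to 152) against 316 (290.0 to 343). In plain CPM, Lrg1 was 35.3 in D0 A against 20.8 in D0 B, with Selp at 59.4 and 31.3, so STOP lay above both D0 libraries for each. Serpina3n was 28.3 CPM in STOP against 144, Cd63 115 against 228, Col4a1 178 against 485 and Col4a2 546 against 935 CPM. Ednrb was not lower, at 193 against 148 CPM, and Armcx4 was 330.3 against 235 CPM. Inhbb was 74.8 CPM (64.8 to 86.0) against 142 (125 to 161), and Rnd3 had overlapping intervals at 93.3 and 87.7 CPM.

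Of the 12 heat shock and immediate early genes, 8 had separate intervals with a higher level in STOP and 2 with a lower one (Fos and Fosb), beside the 488 and 233 of 1012 genes above. Hspa1a was 205 CPM (188 to 223) in STOP against 14.5 (9.48 to 21.3) in D19 B, Hspa1b 293 against 25.1 and Hsph1 61.2 against 23.5 CPM. Hspa5 was 930.0 against 432 CPM, Ehd3 2165 against 1490.0 CPM, H2-K1 1231 against 609 CPM and Aass 267 against 112 CPM. Of the 11 interferon response genes, 9 had separate intervals with a higher level in STOP and 0 with a lower one, beside the same 488 and 233 of 1012 genes. Those 1012 genes had at least 200 CPM in either library, while list genes were counted at any level, so the shares are not a like comparison. Isg15 stood at 335 against 91.0 CPM, while Irf1 had overlapping intervals at 325 and 294 CPM. Ifitm2 and Ly6e, outside the list, stood at 204 against 51.4 CPM and 453 against 141 CPM. Ifi44 stood at 109.6 against 25.1 CPM and Ly6a (Sca-1) at 378 against 91.6 CPM.

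Among the other genes with the largest ratios, Ccn2 was 46.1 CPM in STOP against 342, the insulin receptor Insr 109.6 against 389, Clu (clusterin) 94.8 against 205 and the nuclear RNA Neat1 441 against 1526 CPM. Lars2, Mir6236 and CT010467.1, features that take up ribosomal RNA reads, were also lower in STOP, CT010467.1 at 12830.0 against 69430.0 CPM. Fabp5 stood at 483 against 60.9 CPM, Art3 at 240.0 against 57.5, AW112010 at 222 against 72.6 and the apolipoprotein Apoc1 at 325 against 44.1 CPM. Wnt2, a gene of the rule, was 438 CPM (413 to 463) in STOP against 191 (172 to 213) in D19 B, and Rspo3 was 373 against 439 CPM. STOP also held more transcripts of other cells, with Apoa2 at 206 against 17.3 CPM and Col1a1 at 182 against 2.79 CPM, and the part of this in the differences was not tested.

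**Figure D5:**
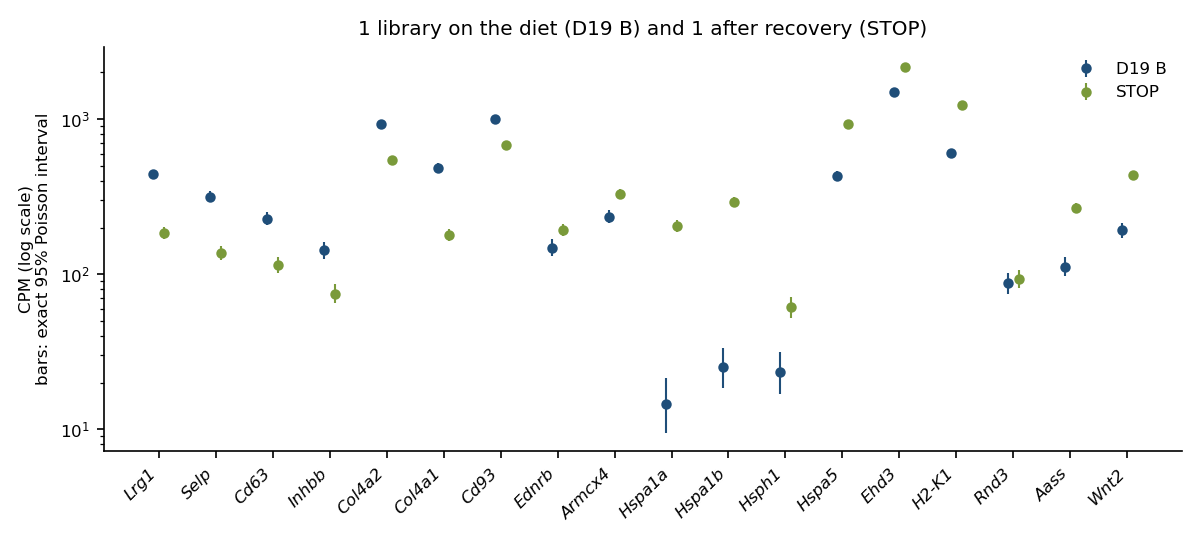
Level (CPM, log axis) of 18 genes in D19 B (blue) and STOP (green), 1 library each, with exact Poisson 95% intervals. Lrg1 and Selp lay lower in STOP (186 and 137 CPM) than in D19 B (440 and 316 CPM), and Hspa1a lay higher (205 against 14.5 CPM).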

How the data were processed

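Single cells of mouse liver were profiled with the 10x Genomics 3′ v3.1 chemistry, and the authors deposited, per library, a matrix of UMI counts with genes against barcodes, for which the submitters' notes name kallisto and GRCm38 (version not given in the sources used here). Strand setting and doublet removal for these matrices are not given there either. The paper does state that doublet clusters were removed from a merged reference built for its spatial data. Barcodes with at least 1500 UMIs were kept and pericentral LSEC selected by the rule. No doublet caller was run, so cells with at least 2 UMIs of Clec4f, Vsig4, Cd5l, Dcn, Reln and Lrat together were removed as an alternative.

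UMIs were summed per library over members (at least 20 cells), filtered with filterByExpr, scaled by TMM and tested with edgeR 4.0.16 (glmQLFit, glmQLFTest) in R 4.3.3, with stage or log2(day + 1) and protocol as terms, over the 12 atlas libraries and Benjamini-Hochberg adjustment at 0.05. The 9 rule genes were left out, and D3 B was not part of the comparison with other LSEC. DESeq2 1.42.0 was an alternative, with adjusted p given as NA kept as NA. Members of the 24 lists could be named, with the 10 largest called changes per direction whose mean log2 CPM was 5 or more (without predicted, mitochondrial, ribosomal, haemoglobin, rule and marker genes), and for STOP the 10 largest ratios per direction at 200 CPM or more. Members and lists were chosen with earlier results of these data known. Free RNA was estimated from barcodes with 10 to 100 UMIs, scaled by the leukocyte markers. Scripts (Python 3.11.15) were tested on simulated data with known changes. The summed UMIs of members ran from 575200 to 33550000 per library, and the smallest sums limit the precision for low genes.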

Additional observations from a re-analysis of the deposited data

Results flagged for a closer look

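Of 112 groups of 4 or 6 libraries examined, 11 held a library far from the others, where chance gives about 1 in 20. In progression, D25 A stood highest for Il17ra (104.3 CPM against 52.3 to 70.7 in the others), D25 B for Myc (420.9 CPM against 101 to 138), for Mki67 (99.7 CPM against 1.52 to 28.9) and for the summed stellate and fibroblast markers (1121 CPM against 17.9 to 365), and D19 B for Itgb3 (106.2 CPM against 26.2 to 52.1). D9 A stood highest for Hspa1a (185.1 CPM against 13.7 to 57.2) and Hspa1b (364.6 CPM against 15.2 to 86.9). In onset, D3 A stood highest for H2-K1 (1793 CPM against 906 to 1049), D5 A for Bmp2 (2339 CPM against 2115 to 2147) and D3 B for the summed hepatocyte markers (269.5 CPM against 186 to 197), and D5 B lowest for Rnd3 (71.4 CPM against 113 to 119.6).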

How the results depend on the processing

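Named genes held 47 calls, with a gene counted once for each test that called it. Of the 1072 values of these calls under the alternatives, 850 kept their call, 222 lost it and 0 reversed. The counts of called genes, which can cover different genes, moved more. Without a filter on low counts they were 462 in the contrast of onset with steady state, 566 and 515 in those of progression with steady state and with onset, 301 for the slope and 53 for the response against other LSEC, and with DESeq2 112, 401, 97 and 695 for the first 4. For onset against steady state (4), RLE scaling gave 7, cells with at least 3000 UMIs 36, the rule without Kit 8, removal of cells with Kupffer or stellate UMIs 2, protocol A 161, protocol B 1 and leaving out 1 library 2 to 99. For progression against steady state (42), these gave 65 without the Kupffer or stellate UMIs, 165 in protocol A, 0 in protocol B and 10 to 101 without 1 library. For progression against onset (6), they were 14 at 3000 UMIs, 11 without Kit, 210 in protocol A, 0 in protocol B and 1 to 66. For the slope (185), protocol B gave 17 and leaving out 1 library 56 (D19 A) to 496 (D0 B). For the response against other LSEC (0), 3000 UMIs gave 3, at least 3 zonation UMIs 1, the rule without Kit 5, removal of Kupffer or stellate UMIs 2, protocol A 1, protocol B 1 and leave-outs 0 to 10. The median share passing the rule (64.6%) was 34.6% thinned to 1500 UMIs, 40.1% when CT010467.1 was left aside and 33.0% without Kit. The cause was not tested. Protocol B alone, the leukocyte-scaled free RNA and the thinning without CT010467.1 were chosen after seeing the data. The planned Alb-scaled free RNA could not be used because its ratio passed 100% in 4 of the 13 libraries. No paired analysis was possible because the labels carry no replicate numbers that would pair libraries between stages; the comparison with other LSEC had library as a block. D3 B and D0 B, with the fewest summed UMIs (575228 and 575797), limit the depth.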
